A study of Mus musculus with 20 samples.

Results

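Regulators of mitochondrial biogenesis were measured in the quadriceps of aged mice: the coactivators Ppargc1a and Ppargc1b, the nuclear factors Esrra, Esrrg and Nrf1, the deacetylases Sirt1 and Sirt3, and Tfam, Tfb2m and Polg, which act on mitochondrial DNA. They were chosen by symbol and not by a rule on their values, though with earlier results of these data known. They are 10 of 55416 genes listed, and all 10 passed the filter on low counts that left 14471 genes. The mice were wild-type C57BL/6J males, 26 to 28 months old, and each received 1 intramuscular injection of 50 µl. Control mice (n = 10) received saline (0.9%) and secretome-treated mice (n = 10) received the product secreted by pluripotent stem cells, a human embryonic line in the study's methods. All were fasted for 4 h and the muscle was taken 3 h after injection, so the groups share age, fasting and the injection itself, and no uninjected or young muscle was analysed here.

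Mitochondrial biogenesis needs both genomes of the cell. PGC-1α, the product of Ppargc1a, binds no DNA itself and is recruited by factors such as the estrogen-related receptors and NRF1 to nuclear genes of oxidative metabolism. These include Tfam, whose product packages mitochondrial DNA and helps start its transcription. In muscle, Ppargc1a is known as a gene that responds within hours to contraction and fasting, and it is more active in oxidative than in glycolytic fibres.

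RNA was sequenced in bulk, so fewer cells of a type and less RNA per cell cannot be told apart. Library totals were 13287000 to 22987200 counts, and each member had between 89 and 3228 counts per muscle. Libraries are numbered 1 to 20 in the labels, with all of 1 to 5 control and all of 16 to 20 secretome, and only 6 to 15 hold both treatments, 5 muscles each. The share of counts on Ttn, the giant sarcomere protein, was 7.02 to 11.03% in controls 1 to 5, against 16.4 to 21.1% in controls 6 to 10, 17.8 to 20.7% in secretome 1 to 5 and 14.2 to 14.7% in secretome 6 to 10. Outside libraries 6 to 15, library number and treatment cannot be told apart, and the labels call none of these ranges a batch. For this reason the comparisons were made over all 20 muscles, within libraries 6 to 15, and between libraries 16 to 20 and 1 to 5. All 8 skeletal muscle markers, Acta1 and Ckm among them, were above 1 CPM (a count scaled to a common library total) in each group. They summed to 122953 to 201002 CPM in controls 1 to 5, below the 246001 to 338757 CPM of controls 6 to 10. The sums were 276053 to 326277 CPM in secretome 1 to 5 and 219302 to 292012 CPM in secretome 6 to 10. Between the outer libraries 7 of 8 had higher estimates, and 2 passed the 5% false discovery rate, beside 3.68% of all genes. The 7 macrophage markers had lower estimates after secretome, 7 of 7 over all muscles and 7 of 7 within libraries 6 to 15, where their summed level was 44.9 to 112 CPM in controls and 35.9 to 47.0 CPM in treated muscles. Between the outer libraries 6 of 7 had lower estimates, but the median summed level was 92.6 CPM in both groups. The 6 fibroblast markers summed to 776 to 1128 CPM in controls 1 to 5, above the 184 to 549 CPM of controls 6 to 10 and the 482 to 687 CPM of secretome 6 to 10. The part of these cells in the results was not tested.

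Sequence upstream of the start site is shown for the members whose differences between treatments had the smallest p-values within or outside libraries 6 to 15. Each run holds the 250 bases before a RefSeq start site on GRCm38.p6, which is not the build the counts were made on, read 5′ to 3′ on the gene's strand. Ppargc1a lies at chr5:51567726-51567975 (minus strand), Polg at chr7:79466274-79466523 (minus strand) and Tfam at chr10:71238045-71238294 (minus strand). Capitals mark CCGGAAG, the core bound by GABP (nuclear respiratory factor 2), and TGACG, the half-site of the cAMP response element, each searched on both strands.
Ppargc1a: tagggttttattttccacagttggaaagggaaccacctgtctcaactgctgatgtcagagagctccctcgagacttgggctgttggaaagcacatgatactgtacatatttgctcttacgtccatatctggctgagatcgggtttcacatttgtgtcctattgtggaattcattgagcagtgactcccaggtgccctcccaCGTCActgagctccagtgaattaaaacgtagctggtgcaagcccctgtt
Polg: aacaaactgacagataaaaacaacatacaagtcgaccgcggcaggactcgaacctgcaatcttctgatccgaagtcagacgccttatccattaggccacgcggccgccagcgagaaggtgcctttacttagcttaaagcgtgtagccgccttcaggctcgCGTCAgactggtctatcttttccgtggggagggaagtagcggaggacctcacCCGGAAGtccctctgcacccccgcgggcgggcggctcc
Tfam: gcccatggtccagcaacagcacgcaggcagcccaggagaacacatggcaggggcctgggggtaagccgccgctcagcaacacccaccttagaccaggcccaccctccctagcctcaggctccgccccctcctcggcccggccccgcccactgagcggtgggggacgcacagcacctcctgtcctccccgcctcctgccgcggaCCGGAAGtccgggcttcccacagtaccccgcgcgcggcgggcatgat
The GABP core stood 47 bases before the Tfam start and 38 before that of Polg, and 6.91% of 32851 promoters of this length hold it. Ppargc1a held a half-site 49 bases before its start and Polg held 1 at 90 bases, against 17.8% of all promoters. Promoters of 9 members were read, at 14 start sites, and Ppargc1b was left out of this reading. Sirt3 also held the GABP core and, 22 bases before the same start, a TGACG half-site. Sirt1 held 2 copies of the E-box CACGTG (6.02% of promoters), 1 of them overlapping a TGACG. Esrrg and Nrf1, each read at more than 1 start, held the MEF2 motif TATTTATA (1.56% of promoters, 1.86% of genes) at 1 start site each. None of the windows held the estrogen-related receptor core AAGGTCA (4.08%) or the NRF1 motif (3.74%). A match describes letters only, and none of these sites was tested for binding here.

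No treatment difference of a member passed the test. With edgeR's quasi-likelihood test over all 20 muscles, 0 of 10 members passed a 5% false discovery rate (FDR, Benjamini-Hochberg) and 0 of 10 were below an unadjusted p of 0.05. The corresponding shares of all genes tested were 0.00691% and 15.7%. Of the members, 6 had higher and 4 lower estimates after secretome, with a median log2 fold change of 0.07 against −0.03 for all genes. The 1 gene that passed, named after its value was seen, was Plxnb2, a semaphorin receptor that is no member, with a log2 fold change of −0.53 ± 0.08 (SE, adjusted p = 0.0228). Within libraries 6 to 15, 1 member was higher and 1 lower at an unadjusted p under 0.05, Ppargc1a and Polg, beside 9.95% of all genes, and none of 10 passed the FDR, beside 0% (0 of 14469 genes by edgeR). Between libraries 16 to 20 and 1 to 5, 3 members were higher at an unadjusted p under 0.05 (Tfam, Polg and Esrrg) beside 21.2% of all genes, and none passed the FDR, which 3.68% of genes did.

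**Figure D1:**
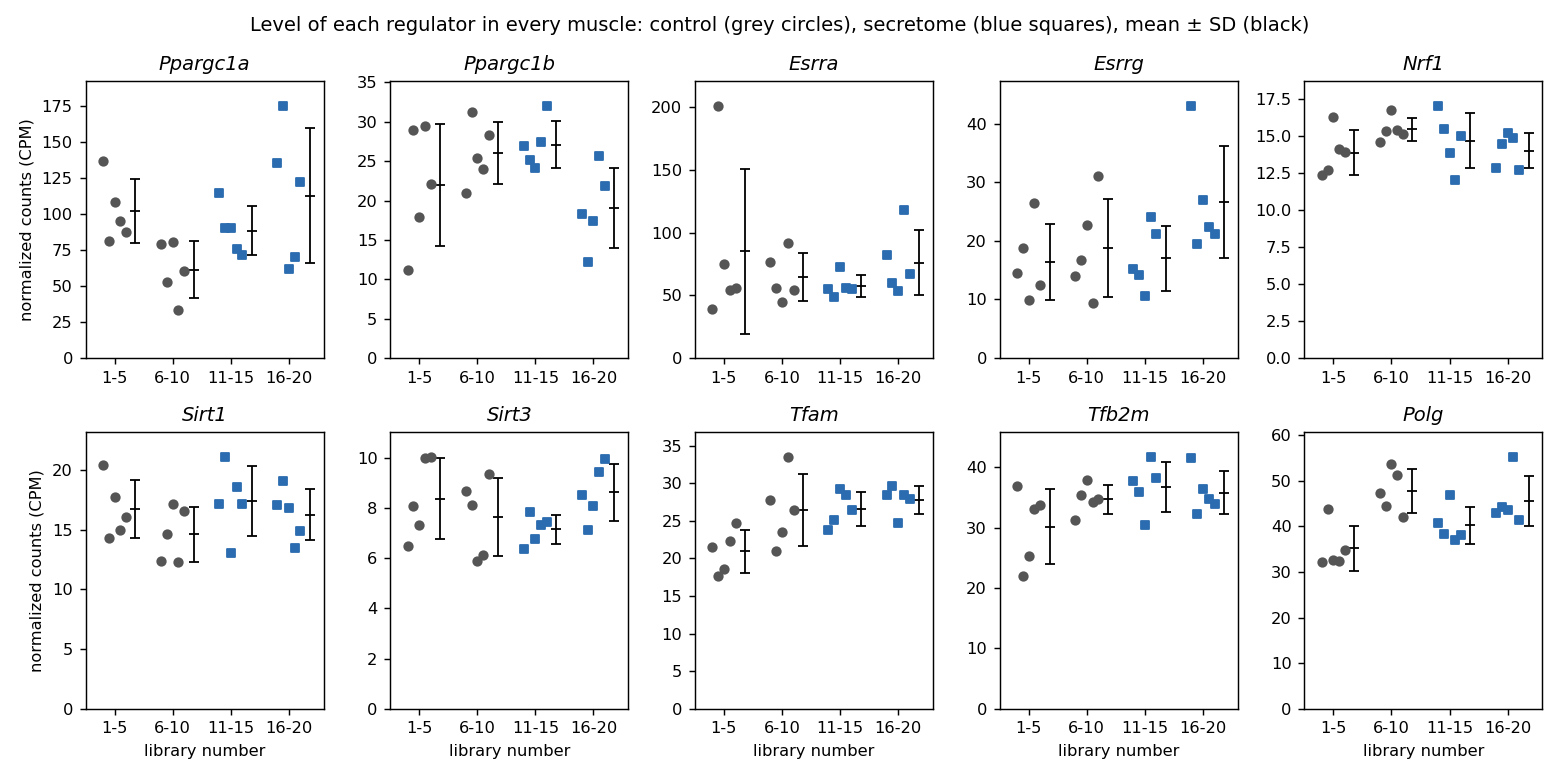
Each panel plots normalized counts (CPM) of 1 regulator in every muscle by library number, with controls as grey circles, secretome-treated muscles as blue squares, and mean ± SD of each set of 5 in black. Ppargc1a was lowest in control 9 (33.7 CPM) and highest in secretome 7 (175 CPM), and Polg was low in 4 of the 5 muscles of libraries 1 to 5.

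Ppargc1a was the more abundant coactivator and the member whose estimate was highest within libraries 6 to 15. Normalized counts (CPM, scaled by trimmed mean of M values) in controls had a lowest value of 33.7, a median of 81.1 and a highest of 137, and in secretome-treated muscles 61.5, 90.1 and 175. The groups overlapped widely, and the values spanned 5.18-fold across the 20 muscles. The log2 fold change was 0.30 ± 0.21 (SE, 95% interval −0.14 to 0.74, adjusted p = 0.497 by edgeR), with 6 of 10 treated muscles above the control median. It was 0.18 without secretome 7, the highest muscle, and 0.41 without control 1.

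Within libraries 6 to 15, Ppargc1a was at 79.2, 53.0, 80.8, 33.7 and 60.4 CPM in controls 6 to 10 and at 114, 89.9, 90.3, 75.6 and 71.5 CPM in secretome 1 to 5. Of the treated muscles, 3 lay above all 5 controls, the other 2 fell inside the control range, and all 5 were above the control median. The log2 fold change was 0.53 ± 0.21 (SE, n = 5 per group, 95% interval 0.07 to 1.00), with an unadjusted p of 0.0273 and an adjusted p of 0.470 by edgeR. A two-sided exact permutation test of the mean log2 CPM gave p = 0.0476, where 252 rearrangements allow no p below 0.00794. Leaving out control 9, the lowest muscle, reduced the log2 fold change to 0.38. Macrophage markers were lower in the same treated muscles, as given above. In the other libraries, controls 1 to 5 were at 137, 81.4, 108, 95.2 and 87.5 CPM and secretome 6 to 10 at 135, 175, 61.5, 70.3 and 122 CPM. The highest and the 2 lowest of these 10 muscles were treated ones, and the log2 fold change was 0.15 ± 0.26 (SE, adjusted p = 0.782). The inner and outer differences were 0.38 ± 0.36 (SE) apart on the log2 scale, with an adjusted p of 0.745, so a difference between them was not shown.

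Ppargc1b, which encodes PGC-1β, was at 11.2 to 31.2 CPM in controls (median 24.7) and at 12.2 to 32.0 CPM after secretome (median 24.6). The ranges were nearly the same, and the log2 fold change was −0.05 ± 0.17 (SE, 95% interval −0.40 to 0.29, adjusted p = 0.898 by edgeR). It was 0.07 ± 0.12 (SE, adjusted p = 0.844) within libraries 6 to 15 and −0.20 ± 0.21 (SE, adjusted p = 0.619) between the outer libraries. The lowest Ppargc1b levels were in control 1 and secretome 7, the muscles with the 2 highest Ppargc1a levels. Ppargc1b hosts the microRNA gene Mir378a on its own strand, listed with 4 to 51 counts per muscle.

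Over the 20 muscles, log2 CPM of Ppargc1a and Ppargc1b had a Pearson's r of −0.58 and a Spearman's rho of −0.49, with permutation p = 0.00824 and 0.0279. Adjusted over the 9 relations of Ppargc1a with the other members, these were 0.0742 and 0.186. Without control 9 and secretome 7, the 2 muscles farthest from the median of Ppargc1a, r was −0.56. In libraries 6 to 15, r was −0.11 (n = 10, permutation p = 0.773), and in deviations from the means of the 4 sets of 5 muscles it was −0.51 (adjusted p = 0.226). That inner value depended on 2 muscles, since without control 9 and secretome 1 it was −0.68, and the deviations without control 9 and secretome 8 gave −0.74. The negative relation did not pass the correction in any of the 3 sets. Ppargc1a and Sirt1, the NAD-dependent deacetylase that acts on PGC-1α, had r = 0.52 over all muscles (adjusted permutation p = 0.0826), 0.29 without the same 2 muscles and 0.47 within libraries 6 to 15. None of the other 7 relations had an adjusted p below 0.1, Tfam included (r = −0.16).

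**Figure D2:**
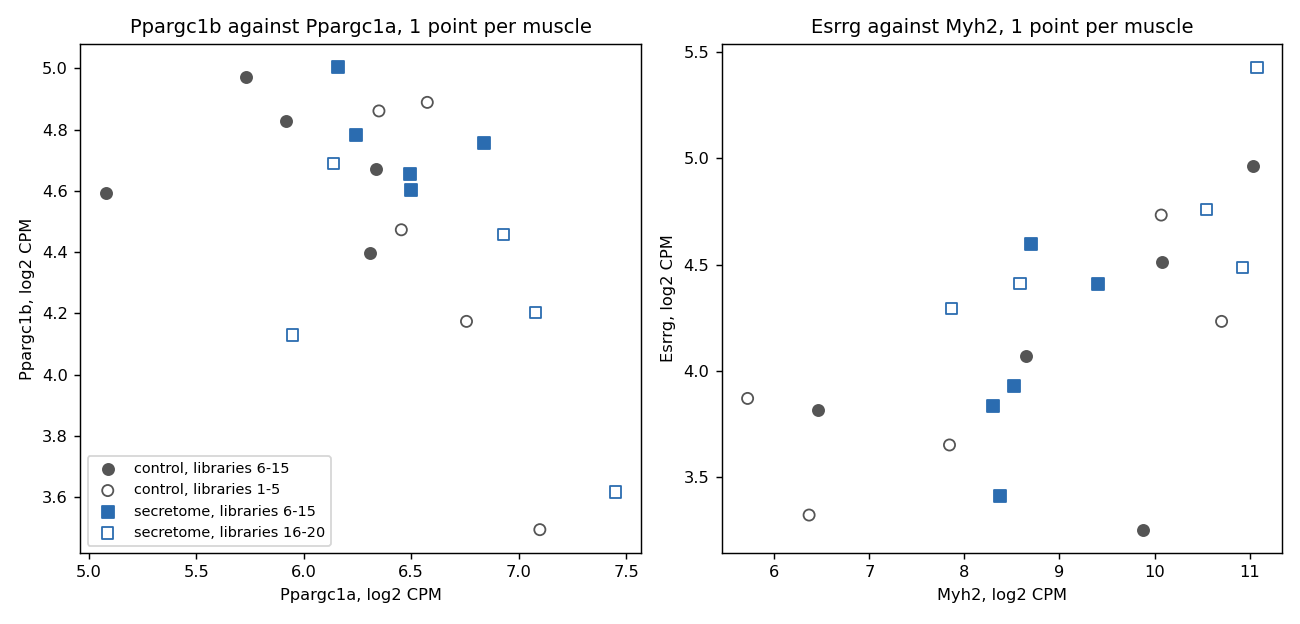
Left, Ppargc1b against Ppargc1a, and right, Esrrg against the myosin gene Myh2, in log2 CPM with 1 point per muscle; filled symbols are libraries 6 to 15 and open symbols the others. The 2 lowest Ppargc1b points are control 1 and secretome 7, both outside libraries 6 to 15.

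The 5 genes whose log2 CPM followed Ppargc1a most closely, ranked among 13171 genes by Pearson's r over 20 muscles after the mean of each set of 5 was subtracted, were Nfatc1 (0.80), Nit1 (0.79), Chp1 (0.78), Wdr44 (0.77) and the gene model Gm29666 (0.74). Nfatc1 encodes a transcription factor that enters the nucleus upon dephosphorylation by calcineurin, and Chp1 a calcineurin B-like calcium-binding protein. When the 10 muscles of libraries 6 to 15 were used alone, r was 0.78 for Nfatc1, 0.76 for Chp1, 0.77 for Wdr44, 0.65 for Gm29666 and 0.18 for Nit1. These ranks were picked out of all genes and are given as a description.

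None of the nuclear factors that work with the coactivators passed the test. Esrra, estrogen-related receptor α, was at 39.2 to 201 CPM in controls (median 55.7) and at 48.8 to 118 CPM after secretome (median 57.7). Control 2 stood alone at 201 CPM, while the other controls were at or below 91.8 CPM. The log2 fold change was −0.16 ± 0.25 (SE, adjusted p = 0.770 by edgeR) and became 0.13 without control 2, so its sign rested on that muscle. Esrra overlaps Trmt112 on the opposite strand, and the strand setting of the counting was not given in the sources used here. Its log2 fold change within libraries 6 to 15 was −0.16 ± 0.17 (SE, adjusted p = 0.752) and became −8.38e-06 without control 9, and between the outer libraries it was −0.16 ± 0.34 (SE, adjusted p = 0.826).

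Esrrg, the estrogen-related receptor enriched in oxidative muscle, was at 9.43 to 31.1 CPM in controls (median 15.6) and at 10.6 to 43.0 CPM after secretome (median 21.1). The log2 fold change was 0.31 ± 0.24 (SE, adjusted p = 0.525) and was 0.15 without secretome 6, the highest muscle. The higher estimate came from outside libraries 6 to 15, where secretome 6 to 10 were at 43.0, 19.5, 27.0, 22.3 and 21.1 CPM and controls 1 to 5 at 14.5, 18.7, 9.90, 26.5 and 12.5 CPM. Control 4 lay among the treated values, and the log2 fold change was 0.70 ± 0.31 (SE, unadjusted p = 0.0378, adjusted p = 0.206 by edgeR). The log2 fold change within libraries 6 to 15 was −0.13 ± 0.31 (SE, adjusted p = 0.894), with controls at 13.97, 16.7, 22.7, 9.43 and 31.1 CPM and treated muscles at 15.1, 14.2, 10.6, 24.1 and 21.1 CPM. The inner and outer differences were −0.84 ± 0.44 (SE) apart, with an adjusted p of 0.503.

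Esrrg varied from muscle to muscle with Myh2 and Myh1, the fast IIa and IIx myosins, in relations examined after the data were seen. Among 40 relations of the 10 members with 4 myosin heavy chain genes, Esrrg and Myh2 had r = 0.65 and rho = 0.73 over 20 muscles (adjusted permutation p = 0.0248 and 0.0184), and r = 0.75 without the 2 muscles farthest from the median of Esrrg. Esrrg and Myh1 had r = 0.67 and rho = 0.64 (adjusted permutation p = 0.0246 and 0.0576), while Esrrg and Myh4, the fastest isoform, had r = 0.03. The r within libraries 6 to 15 was 0.47 with Myh2 (n = 10, adjusted permutation p = 0.856) and 0.55 with Myh1, and in deviations from the 4 means 0.60 and 0.62 (adjusted p = 0.157 for both). The direction was the same in each set, but it passed the correction only over all 20 muscles. Tfam and Tfb2m each had r = 0.69 with Myh4 (adjusted permutation p = 0.0246 and 0.0255). By rank neither passed, with rho = 0.47 and 0.34 (adjusted permutation p = 0.2795 and 0.4677). Without controls 2 and 3, r fell to 0.34 and 0.11, so the pooled r depended in part on those 2 muscles. Within libraries 6 to 15, r was −0.17 and 0.12. In deviations from the 4 means, r was 0.32 for Tfam and 0.50 for Tfb2m (adjusted p = 0.567 for both). Over 20 muscles, Ppargc1a had r = −0.39 with Myh7, −0.40 with Myh2, −0.30 with Myh1 and −0.05 with Myh4 (lowest adjusted permutation p = 0.323). Within libraries 6 to 15 its r was −0.41 with Myh2 and 0.38 with Myh4, and in deviations −0.52 with Myh2 (adjusted permutation p = 0.239). None of these passed the correction.

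Nrf1, nuclear respiratory factor 1, was the steadiest member, at 12.4 to 16.7 CPM in controls (median 14.9) and 12.04 to 17.01 CPM after secretome (median 14.7), a coefficient of variation of 9.86% over all muscles. Its log2 fold change was −0.03 ± 0.08 (SE, 95% interval −0.19 to 0.13, adjusted p = 0.872), the narrowest interval of the 10, with −0.06 ± 0.11 (SE) within libraries 6 to 15 and 0.02 ± 0.11 (SE) between the outer libraries. Sirt1 was at 12.3 to 20.5 CPM in controls (median 15.5) and 13.1 to 21.1 CPM after secretome (median 17.1). Its log2 fold change was 0.10 ± 0.10 (SE, adjusted p = 0.638), and 0.26 ± 0.14 (SE, unadjusted p = 0.0895, adjusted p = 0.549 by edgeR) within libraries 6 to 15, where 4 of 5 treated muscles were above the control median. Sirt3, the main mitochondrial deacetylase, was at 5.88 to 10.0 CPM in controls (median 8.09) and 6.38 to 9.96 CPM after secretome (median 7.65), with a log2 fold change of −0.02 ± 0.12 (SE, adjusted p = 0.941), −0.08 ± 0.16 (SE) within libraries 6 to 15 and 0.04 ± 0.16 (SE) between the outer libraries. Sirt3 overlaps Psmd13 and Ric8a on the opposite strand, which limits its value in the same way as that of Esrra.

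Among the genes that act on mitochondrial DNA, the estimates of Tfam and Polg differed between library ranges, without passing the correction in edgeR. Tfam was at 17.6 to 33.5 CPM in controls (median 22.9) and at 23.8 to 29.6 CPM after secretome (median 28.1). All treated muscles lay inside the control range, which was the wider, and 10 of 10 were above the control median. The log2 fold change was 0.20 ± 0.10 (SE, 95% interval −0.00057 to 0.40, unadjusted p = 0.0506, adjusted p = 0.319 by edgeR). In controls 1 to 5 Tfam was at 21.5, 17.6, 18.6, 22.3 and 24.8 CPM and in secretome 6 to 10 at 28.4, 29.6, 24.7, 28.5 and 27.9 CPM. Only secretome 8 fell below the highest of these controls, and the log2 fold change was 0.41 ± 0.12 (SE, unadjusted p = 0.00277, adjusted p = 0.0602). In controls 6 to 10 it was at 27.8, 21.0, 23.5, 33.5 and 26.4 CPM and in secretome 1 to 5 at 23.8, 25.1, 29.2, 28.4 and 26.4 CPM. Both sets were intermixed, with a log2 fold change of 0.02 ± 0.12 (SE, adjusted p = 0.959). Controls 1 to 5 were thus the low set. They also held the lowest Ttn shares, the lowest muscle marker sums and the highest fibroblast marker sums given above, whose part in this was not tested.

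Tfb2m, a methyltransferase-like factor that opens promoters of mitochondrial DNA with the polymerase, was at 22.1 to 37.95 CPM in controls (median 34.0) and 30.4 to 41.7 CPM after secretome (median 36.2). Its log2 fold change was 0.16 ± 0.09 (SE, adjusted p = 0.392), 0.10 ± 0.10 (SE) within libraries 6 to 15 and 0.25 ± 0.13 (SE, adjusted p = 0.265) between the outer libraries. Controls 2 and 3 were its 2 lowest muscles, at 22.1 and 25.3 CPM. The inner and outer differences were −0.16 ± 0.18 (SE) apart, with an adjusted p of 0.787 by edgeR, so a difference between them was not shown.

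Polg, the catalytic subunit of the mitochondrial DNA polymerase, had opposite signs inside and outside libraries 6 to 15. In controls 1 to 5 it was at 32.3, 43.9, 32.7, 32.4 and 34.8 CPM and in secretome 6 to 10 at 43.0, 44.3, 43.5, 55.2 and 41.5 CPM. Only control 2 overlapped the treated values, and the log2 fold change was 0.37 ± 0.11 (SE, unadjusted p = 0.00331, adjusted p = 0.0664). In controls 6 to 10 it was at 47.3, 44.4, 53.8, 51.3 and 42.1 CPM and in secretome 1 to 5 at 40.8, 38.2, 46.9, 37.1 and 38.01 CPM. 4 of 5 treated muscles lay below all controls and none was above the control median, with a log2 fold change of −0.24 ± 0.10 (SE, unadjusted p = 0.0315, adjusted p = 0.473 by edgeR, two-sided exact permutation p = 0.0317). The inner and outer differences were −0.62 ± 0.16 (SE) apart (unadjusted p = 0.000767, adjusted p = 0.161 by edgeR). For that test, 11.1% of all genes were below an unadjusted p of 0.05, and the FDR was met by 0.0553%. DESeq2 put the same difference at −0.64 with an adjusted p of 0.0203. Over all 20 muscles the opposite signs left Polg at 41.5 ± 8.06 CPM in controls and 42.8 ± 5.34 CPM after secretome (SD, n = 10), a log2 fold change of 0.05 ± 0.10 (SE, adjusted p = 0.852).

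**Figure D3:**
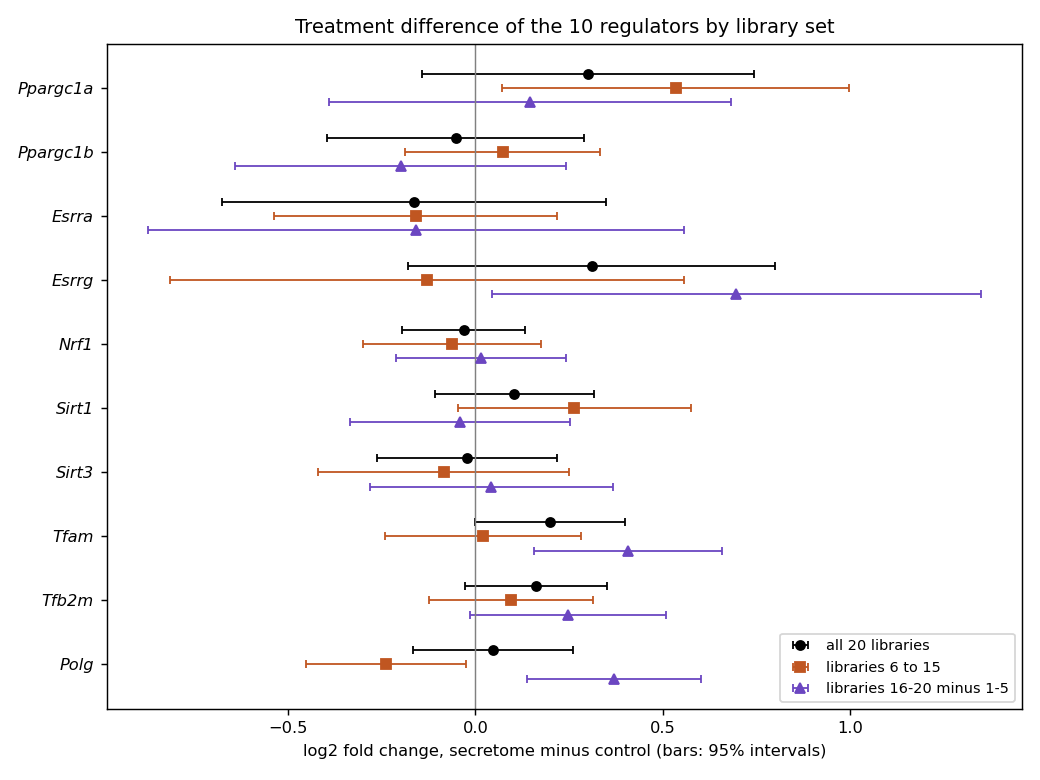
Log2 fold change (secretome minus control) of each regulator with its 95% interval from edgeR, over all 20 libraries (circles), within libraries 6 to 15 (squares) and between libraries 16 to 20 and 1 to 5 (triangles). Polg is −0.24 within libraries 6 to 15 and 0.37 outside them, and Ppargc1a is 0.53 and 0.15.

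Levels were compared between genes per length, taken as the merged exons of all annotated transcripts of a gene, which can be longer than any of them. This length was 10.7 kb for Polg and 10.3 kb for Nrf1, against 4.44 kb for Tfam. The resulting scale depends on that choice of length. On that scale, as CPM divided by exon length in kilobases, over 20 muscles, the order was Esrra (16.1 ± 8.11, SD), Ppargc1a (13.8 ± 5.02), Tfb2m (12.3 ± 1.69), Ppargc1b (5.90 ± 1.46), Tfam (5.74 ± 0.89), Polg (3.93 ± 0.62), Esrrg (3.17 ± 1.32), Sirt1 (3.05 ± 0.47), Nrf1 (1.41 ± 0.14) and Sirt3 (1.33 ± 0.22). Tfb2m was above Ppargc1b, and Sirt1 above Nrf1, in 20 of 20 muscles, and Tfam above Polg in 19. Before division by length Polg had the higher mean, at 42.2 CPM against 25.5 CPM for Tfam. The first 3 genes could not be ranked against each other, with Esrra above Ppargc1a in 11 muscles and Ppargc1a above Tfb2m in 12, nor could Ppargc1b against Tfam (11), Esrrg against Sirt1 (10) or Nrf1 against Sirt3 (11).

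Around the members, the genes that signal to PGC-1 had mostly higher estimates after secretome, none past the FDR. Of 26 upstream regulators, 17 had higher and 9 lower estimates, 4 higher and 1 lower at an unadjusted p under 0.05 (beside 15.7% of all genes), with a median log2 fold change of 0.10. Ppp3cb, the β catalytic subunit of calcineurin, was at 222 ± 35.2 CPM in controls and 290 ± 27.4 CPM after secretome (SD, n = 10), with a log2 fold change of 0.38 ± 0.09 (SE, adjusted p = 0.109). It was 0.34 within libraries 6 to 15 (adjusted p = 0.450) and 0.44 outside them (adjusted p = 0.0552), a similar estimate in both. Over all muscles DESeq2 passed 216 genes, where edgeR passed 1. Of the 7 lists DESeq2 passed 1 gene, Ppp3cb, at 0.40 ± 0.09 (SE, adjusted p = 0.0102). Prkaa2, the muscle catalytic subunit of AMP-activated kinase, was at 375 ± 97.3 and 475 ± 50.4 CPM, a log2 fold change of 0.34 ± 0.13 (SE, adjusted p = 0.232), with 0.23 within libraries 6 to 15 and 0.47 outside. The list held 16 higher and 10 lower estimates within libraries 6 to 15, and 2 genes, named after their values were seen, passed the FDR between the outer libraries, beside 3.68% of all genes: Mapk14 (p38α kinase, log2 fold change 0.45) and Crtc3 (a CREB coactivator, −0.35).

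Of 24 partners and corepressors of PGC-1, 19 had higher and 5 lower estimates over all muscles, with a median of 0.12, and none passed the FDR. Ep300, an acetyltransferase, had a log2 fold change of 0.21 ± 0.10 (SE, adjusted p = 0.309) and Ncor1, a corepressor, 0.22 ± 0.11 (SE, adjusted p = 0.345). The same list, within libraries 6 to 15, split into 11 higher and 13 lower, with a median of −0.02, and between the outer libraries it held 19 higher and 5 lower (median 0.22), 8 of them higher at an unadjusted p under 0.05 beside 21.2% of all genes in either direction. Of 16 sirtuin and NAD genes, 6 were higher and 10 lower by estimate (median −0.09), led by Nampt, the rate-limiting enzyme of NAD salvage, at 0.34 ± 0.15 (SE, adjusted p = 0.287), and Nadk2, the mitochondrial NAD kinase, at 0.19 ± 0.09 (SE, adjusted p = 0.324). These split into 5 higher and 11 lower within libraries 6 to 15 (median −0.05) and 7 higher and 9 lower outside them (median −0.04). Of 25 genes of mitochondrial DNA transcription and replication, 14 were higher and 11 lower by estimate (median 0.01), led by Rrm2b, a ribonucleotide reductase subunit, at 0.31 ± 0.12 (SE, adjusted p = 0.237), and Lrpprc, which stabilizes mitochondrial messenger RNA, at 0.29 ± 0.11 (SE, adjusted p = 0.238). Rrm2b kept a value near 0.30 in both ranges, at 0.30 within and 0.32 outside libraries 6 to 15, whereas Lrpprc was at 0.01 within and 0.61 outside (adjusted p = 0.0199).

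The target genes of PGC-1 and the estrogen-related receptors divided by library range. Of 35 listed, 34 were tested, and 27 had higher and 7 lower estimates over all muscles (median 0.13), 6 and 1 of them at an unadjusted p under 0.05, beside 15.7% of all genes, and none past the FDR. Sod2, the mitochondrial superoxide dismutase, was at 183 CPM in controls and 233 CPM after secretome, a log2 fold change of 0.35 ± 0.10 (SE, adjusted p = 0.158), and Idh3a, of the citric acid cycle, at 281 and 355 CPM, 0.33 ± 0.11 (SE, adjusted p = 0.172). Between the outer libraries 29 of 34 were higher (median 0.37) and 5 passed the FDR, beside 3.68% of all genes, higher for Sod2 (0.58), Idh3a (0.53), Cox5a (0.72) and Mfn2 (0.57) and lower for Cox6a2 (−1.12). Within libraries 6 to 15, 8 were higher and 26 lower (median −0.08), none passed the FDR, and the 2 at an unadjusted p under 0.05, beside 9.95% of all genes, were lower. All-gene medians were −0.03 over all muscles, −0.05 between the outer libraries and −0.01 within libraries 6 to 15. The 8 skeletal muscle markers had medians of 0.12, 0.34 and −0.03 in the same order, and their part in this was not tested.

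Of the 13 messenger RNAs made from mitochondrial DNA, 12 had opposite signs by library range. The other, mt-Co1, was at 0.51 within and 0.03 outside libraries 6 to 15. Over all muscles 5 were higher and 8 lower by estimate (median −0.18), with mt-Nd4l at −1.15 ± 0.40 (SE, adjusted p = 0.1996) and mt-Nd6 at −0.70 ± 0.30 (SE, adjusted p = 0.267), both subunits of complex I. Within libraries 6 to 15 all 13 were higher (median 0.48), none past the FDR. Control 9 had 0.977% of its counts on mitochondrial genes, against 2.89 to 7.40% in the other muscles of that range. The part of control 9 in these estimates was not tested. Between the outer libraries 12 of 13 were lower (median −0.73), with mt-Nd4l, mt-Atp6 and mt-Atp8 past the FDR, beside 3.68% of all genes. Counts differed widely among the 13, and whether they follow the amounts of the transcripts was not tested. In controls mt-Nd3, mt-Atp8, mt-Nd4l, mt-Co3, mt-Co2 and mt-Atp6 had means of 8.56 to 31.4 CPM, with outer estimates of −0.73 to −1.73. The 3 past the FDR were among these low-count genes. The gene mt-Nd6, at 621 CPM, was at −1.13. The others, at 3209 to 17261 CPM, had outer estimates of −0.38 to 0.03 and inner estimates of 0.46 to 0.80. All 13 come from 1 genome and its long shared transcripts and are not independent. The genes mt-Nd4l, mt-Atp6 and mt-Atp8 overlap their neighbours on the same strand, so how the counting shared reads among them limits their values. Of 12 fast and slow fibre genes, 6 were higher and 6 lower by estimate, led by Myh4 at 0.35 ± 0.17 (SE, adjusted p = 0.323) and Tnni2 at −0.20, and none passed the FDR. Their median, over fast and slow genes together, was −1.62 within libraries 6 to 15, where 9 of 12 were lower and none passed. The 2 lower at an unadjusted p under 0.05 by edgeR, beside 9.95% of all genes, were the slow Tnni1 (−2.91) and Tnnc1 (−3.16). They had means of 4.75 and 6.03 CPM in controls. Myh7, also slow, had the lowest estimate (−3.57). The 3 higher were the fast Myh4 (0.05), Mylpf (0.06) and Tnnt3 (0.03). Between the outer libraries the median was 0.69, 10 of 12 were higher and Myh4 passed (0.76, adjusted p = 0.0310).

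**Figure D4:**
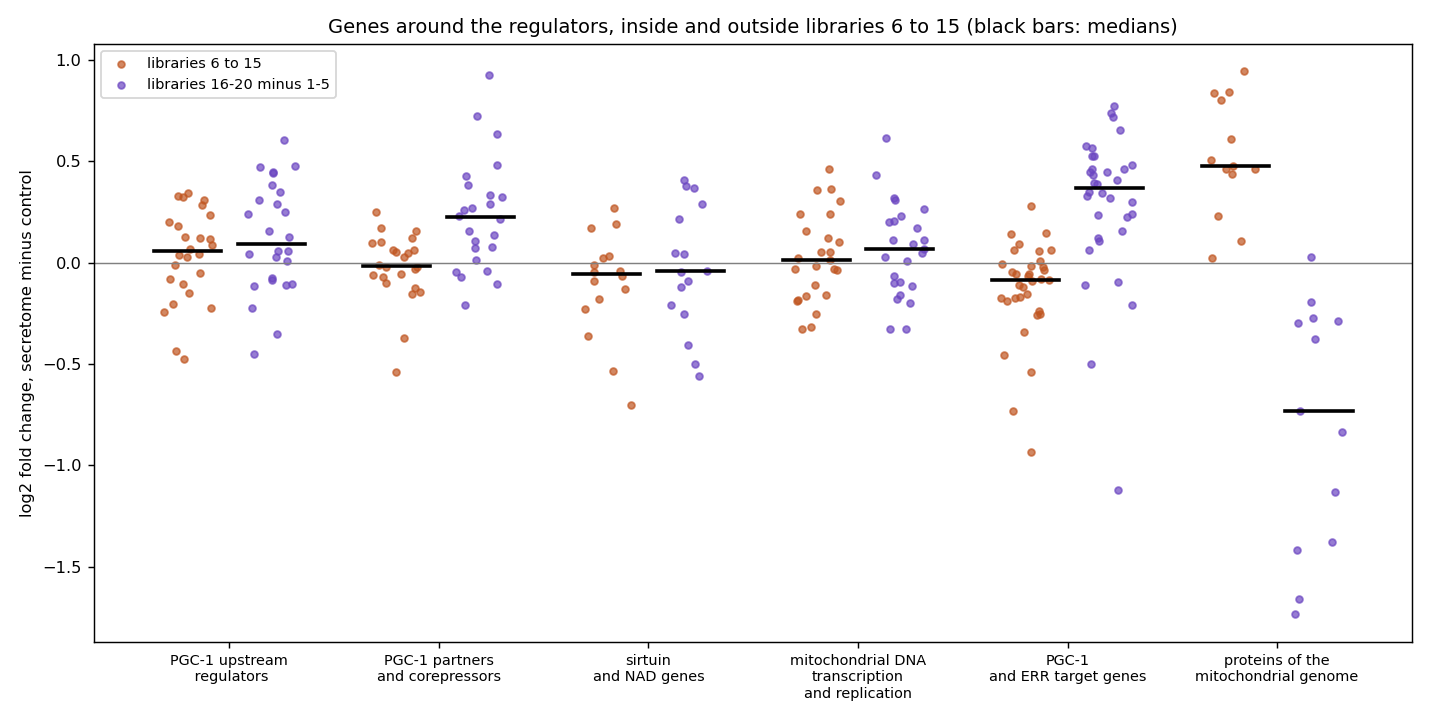
Log2 fold change (secretome minus control) of each gene of 6 lists within libraries 6 to 15 (orange) and between libraries 16 to 20 and 1 to 5 (purple), with black bars at the medians. Target genes have medians of −0.08 and 0.37, and genes of the mitochondrial genome 0.48 and −0.73.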

How the data were processed

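Total RNA of the 20 quadriceps muscles was sequenced with a directional kit, and the authors deposited 1 table of raw read counts per Ensembl gene, with no normalization. The submitters' processing notes name cutadapt 1.16, STAR 2.7.9a, featureCounts 1.6.3, DESeq2 1.34.0 and the build GRCm39; the strand setting and annotation release were not given in the sources used here. The extraction text in the labels mentions myotubes, although the tissue is given as quadriceps. Groups and replicate numbers were taken from the sample titles, and nothing states which mice shared a cage or day. Of the columns, 0 were identical, and 0 columns were left without a sample.

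Gene symbols were matched to GENCODE M21 names (52083 of 55416 identifiers, at least 98.6% of counts). Exon lengths and start sites came from GRCm38 tables, so no gene coordinates on the authors' build are given. Counts were normalized by trimmed mean of M values, filtered by expression and fitted with edgeR 4.0.16 (robust quasi-likelihood F-test, R 4.3.3), with Benjamini-Hochberg adjustment over all genes tested and a threshold of 5%. Fits covered all 20 libraries, libraries 6 to 15 alone, and 4 sets of 5 muscles, which gave the outer difference and the difference between inner and outer. The log2 CPM used a prior count of 2, and correlations used 100000 permutations, two-sided. DESeq2 1.42.0, voom (limma 3.58.1), other scalings and filters, the replicate number as a block, library range as a term, GC content and length offsets, and each muscle left out were tried as alternatives. The scripts were tested on simulated data.

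The 10 members and the gene lists were chosen with earlier results of these data known. Of each list, the genes past the threshold were to be named, and otherwise the 2 with the smallest p over all 20 libraries.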

Additional observations from a re-analysis of the deposited data

Results flagged for a closer look

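Esrra in control 2 stood apart from the other controls at 201 CPM, with a gap to the next control of 0.4786 of the range of log2 CPM in that group, past Dixon's 95% limit for 10 samples. Of 20 groups tested (10 members in 2 treatments) this was the 1 value past the limit, and chance alone gives about 1.

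Tfam had a treatment difference inside libraries 6 to 15 that was lower than the one outside them by a log2 value of −0.399314 (unadjusted p = 0.0287, adjusted p = 0.367 by edgeR). The same test for Polg gave −0.618655 (unadjusted p = 0.000767, adjusted p = 0.161 by edgeR), with all 5 treated muscles below the control median inside libraries 6 to 15. Both were picked out by the unadjusted p of the interaction and did not pass the correction over all genes in edgeR, while DESeq2 gave Polg −0.64 with an adjusted p of 0.0203, past the 5% threshold. Outside libraries 6 to 15, library number and treatment cannot be told apart.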

How the results depend on the processing

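Over all 20 muscles, the 10 members gave 280 alternative values, of which 267 kept their sign, 13 reversed it and 0 passed the 5% FDR (lowest adjusted p 0.191). Reversed values were Esrra at 0.038 by voom, Ppargc1b at 0.061, Esrrg at −0.14 and Polg at −0.25 with the 3 library ranges as a term, and Ppargc1b at 0.10 with GC content and length offsets. With 1 muscle left out in turn, Ppargc1b ranged from −0.14 to 0.022, Esrra from −0.29 to 0.13, Sirt3 from −0.063 to 0.020 and Polg from −0.00048 to 0.095. Within libraries 6 to 15, 142 of 150 values kept their sign, 8 reversed it and 0 passed. Tfam was at −0.043 and Tfb2m at −0.040 with the offsets, and without 1 muscle Esrrg ranged from −0.30 to 0.14, Sirt3 from −0.16 to 0.0027 and Tfam from −0.053 to 0.12. For the inner minus outer difference, 218 of 230 kept their sign and side, and 11 reversed. Esrra was at 0.023 with the offsets and ranged from −0.61 to 0.20 without 1 muscle, and Polg by DESeq2 passed the FDR at −0.64, while its adjusted p in edgeR without 1 muscle was 0.0714 to 0.305. The offsets in the last 2 sets, and the scaling and left-out muscles of the inner minus outer difference, were chosen after seeing the data.

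The count of genes past the FDR was 1 over all muscles, 216 by DESeq2 (70 higher), 3 by voom, 0 with the 3 ranges as a term, and 0 (without control 6) to 15 (without control 5) with 1 muscle left out. Among the PGC-1 upstream regulators DESeq2 passed 1 gene, Ppp3cb. Within libraries 6 to 15 the count was 0, with 37 by DESeq2, 11 with no filter and 0 to 2 with 1 muscle left out. For the inner minus outer difference it was 8, with 186 by DESeq2, 4 with the offsets and 1 to 9 with 1 muscle left out. The cause was not tested.

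Correlations of Ppargc1a that changed sign were those with Nrf1 (0.054 within libraries 6 to 15), Sirt3 (−0.027 there and −0.20 in deviations) and Tfb2m (0.097 there and 0.069 in deviations), none of these with an adjusted p below 0.8.

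Replicate numbers did not pair the muscles: same-numbered control and secretome muscles correlated at −0.24 to 0.221 in their deviations, 2 of 10 above 0.1. With the replicate block the count was 0, Ppargc1a was at 0.31 and Tfam at 0.22 (adjusted p = 0.313).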
